A study of Drosophila melanogaster with 6 samples.

Results

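RNA-seq of Drosophila melanogaster males that carry a lysine-to-arginine change at position 27 of the histone variant H3.3 (K27R) was compared with wild type, with both mutant genotypes pooled. A gene was counted as separated when its levels in the 4 mutant libraries were all above, or all below, those of both wild type libraries. Separated genes numbered 2452 among the 11304 genes tested (21.7%), out of 15115 genes in the deposited table. All 4 mutant libraries lay above both wild type libraries for 1084 genes (9.59%) and below both for 1368 genes (12.1%).

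Each library came from pooled whole males in the pharate adult stage, 96 to 108 h after puparium formation, when the adult is formed inside the pupal case. The wild type group was yw, with 2 libraries, called controls. The single mutants (H3.3B K27R, 2 libraries) were yw with a CRISPR/Cas9-made K27R change in the endogenous H3.3B gene, which is X-linked, so that these hemizygous males had no wild type H3.3B, while both copies of H3.3A were wild type. The double mutants (2 libraries) carried the same H3.3B allele and were also homozygous for K27R in H3.3A, which is on 2L. All 6 libraries were yw and kept the replication-dependent H3 genes unmutated. The edited X chromosome was shared by all 4 mutant libraries and absent from both controls, so the K27R change cannot be told apart from any other sequence on that chromosome.

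Histone H3.3 is placed into chromatin outside S phase, mostly at active genes. Its lysine 27 can be acetylated, a mark of active enhancers and promoters, or methylated by the Polycomb complex PRC2, a mark bound by the PRC1 complex in the silencing of developmental genes. Arginine cannot take either mark.

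Between 1535941 and 2118264 reads were counted on genes per library. Values are RPKM, read number divided by the length of the gene and by library size, and differences between groups are mutants minus wild type on log2(RPKM + 1), with the standard error (SE) from limma. Whole-animal RNA does not tell fewer cells of a type from less RNA per cell. Defining markers of flight muscle, neurons and photoreceptors were present in every library, with summed levels of 7891 to 8650 RPKM for 4 muscle genes, 159 to 203 RPKM for 4 neuron genes and 1002 to 1224 RPKM for 4 photoreceptor genes, and the mutant and wild type ranges overlapped for each sum. Of these markers n-syb (neurons) and Arr2 and norpA (photoreceptors) were separated and lower. The 4 female and yolk genes listed summed to at most 2.92 RPKM.

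Separation alone was common and mostly small. Of the 2452 separated genes, 1445 (58.9%) differed by less than 0.5 on the log2 scale, and 242 (2.14% of genes tested) differed by more than 1, of which 87 were higher (0.77%) and 155 lower (1.37%). The median difference was 0.40 for separated genes that were higher and -0.46 for those that were lower, against -0.01 over all genes tested. When genes were ranked by level into 4 equal bins, 371 were separated and higher and 467 lower among the 2826 with the highest levels, against 180 and 291 among the 2826 with the lowest. Large differences lay at the other end, with 136 of the 242 in the lowest bin and 21 in the highest. Of these 242 genes, 165 had a mean of under 10 reads per library.

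The genes at the edges of the definition, among those that differed by more than 1, were the following. CG18302 was just inside, with 14.7 and 6.39 RPKM in wild type, 0 and 0 in the single mutants and 1.95 and 6.38 in the double mutants. CG42262 was also just inside, with 1.12 and 3.37 RPKM in wild type against 0 and 1.11 in the single mutants and 1.07 and 0 in the double mutants. Just outside were a pair of small nucleolar RNAs, snoRNA:kis-a, at 0 in 4 libraries, and snoRNA:lola-c, at 0 in 5 libraries. Centring each library on its own median turned the balance of separated genes from 44.2% higher to 54.4% higher (1376 higher, 1152 lower), and quantile normalization to 55.9% higher, while the median difference over all genes became 0.02 and 0.03. Which direction held more separated genes thus depended on the scaling.

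**Figure D1:**
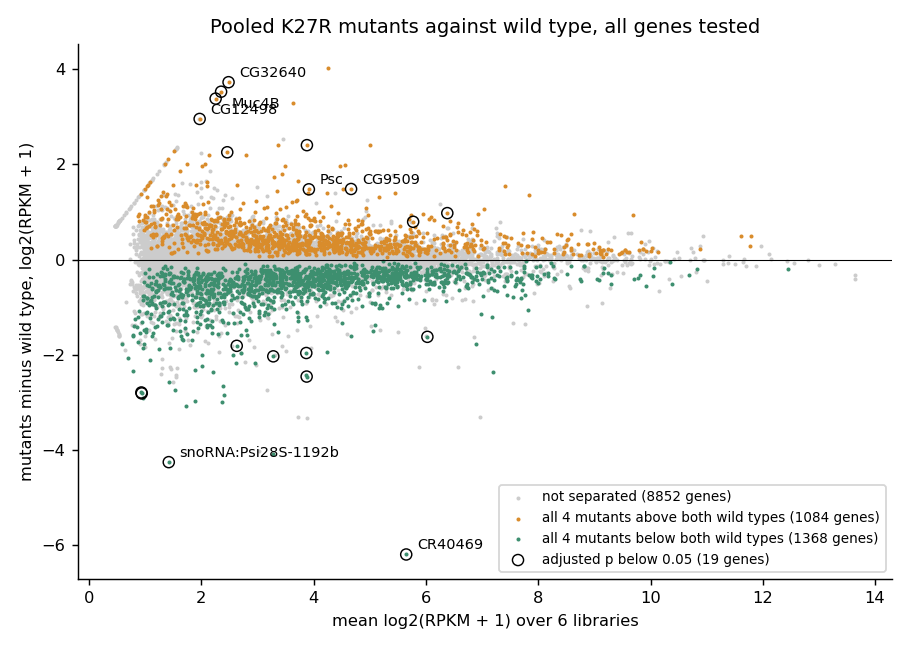
Difference between the 4 mutant and 2 wild type libraries on log2(RPKM + 1) for each gene tested, against its mean level over the 6 libraries. Orange and green points are the 1084 and 1368 separated genes, and black circles mark the 19 genes with an adjusted p below 0.05 in limma. CR40469 stands alone at the bottom at -6.20.

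Across all genes, 4 passed the call rule of limma, with adjusted p under 0.01 and a log2 difference larger than 1 in either direction (0.0354%), 2 of them higher (0.0177%) and 2 lower (0.0177%). There were 19 genes with an adjusted p below 0.05 (0.168%), 10 higher (0.0885%) and 9 lower (0.0796%). Without adjustment, 1274 genes (11.3%) had a p below 0.05, 517 higher (4.57%) and 757 lower (6.7%). The fit that gives each of the 3 genotypes its own mean, and so does not count the difference between single and double mutants as error, had 36 genes with an adjusted p below 0.05 for the mean of both mutants against wild type (0.318%), 19 higher and 17 lower, of which 18 were among the 19 genes of the pooled fit and 33 were separated. Adjusted p values below are from the pooled fit unless the 3-genotype fit is named. All 4 called genes were on the X chromosome, which holds 15.7% of the genes tested. They were the non-coding RNA locus CR40469, the mucin-like gene Muc4B, the uncharacterised gene CG32640 and snoRNA:Psi28S-1192b, named for a pseudouridine of 28S ribosomal RNA.

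CR40469 had 828 and 931 RPKM in wild type, 12.2 and 11.7 in the single mutants and 8.38 and 12.2 in the double mutants. The groups were far apart, with 282 and 422 reads in wild type and 3 to 5 reads in each mutant library. The difference was -6.20 (SE 0.17, limma adjusted p = 2.96e-05). It lies on X from 122493 to 122706 in the BDGP6 annotation, in which no other gene overlaps it. CR40469 was called under every alternative that was run.

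No read of Muc4B was counted in the controls, whereas it was at 10.4 and 9.69 RPKM in the single mutants and 10.4 and 11.7 in the double mutants, or 25 to 32 reads. When 3 reads per wild type library are allowed for, its mutant mean was 10.3 times that level (adjusted p = 0.0019 in limma). The genes on both sides of it, CG43288 and CG15576, differed by -0.03 and -0.31, with adjusted p of 0.985 and 0.566. CG32640 was also at 0 in wild type, and at 16.5 and 8.43 RPKM in the single mutants and 12.1 and 13.2 in the double mutants, from 6 to 14 reads. The mutant mean was 3.38 times the level of 3 reads per wild type library (adjusted p = 0.0072 in limma). The adjacent gene CG32641 was at 1.42 and 7.46 RPKM in wild type and 12.7 to 22.9 in mutants, with an adjusted p of 0.277. CG32640 and CG32641 are similar copies that can share reads, so the split between the 2 genes is uncertain.

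snoRNA:Psi28S-1192b was at 13.7 and 24.0 RPKM in wild type, which is 3 and 7 reads, and at 0 in all 4 mutant libraries. The wild type mean was 1.44 times the level of 3 reads per mutant library, a margin as weak as the read count (adjusted p = 0.0072 in limma). snoRNA:Psi28S-1192b lies within RpS5a on the same strand. RpS5a, a protein of the small ribosomal subunit, was itself slightly higher in every mutant library, with 232 and 245 RPKM in wild type and 256 to 280 in mutants. The neighbouring copies snoRNA:Psi28S-1192a and snoRNA:Psi28S-1192c were not separated.

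**Figure D2:**
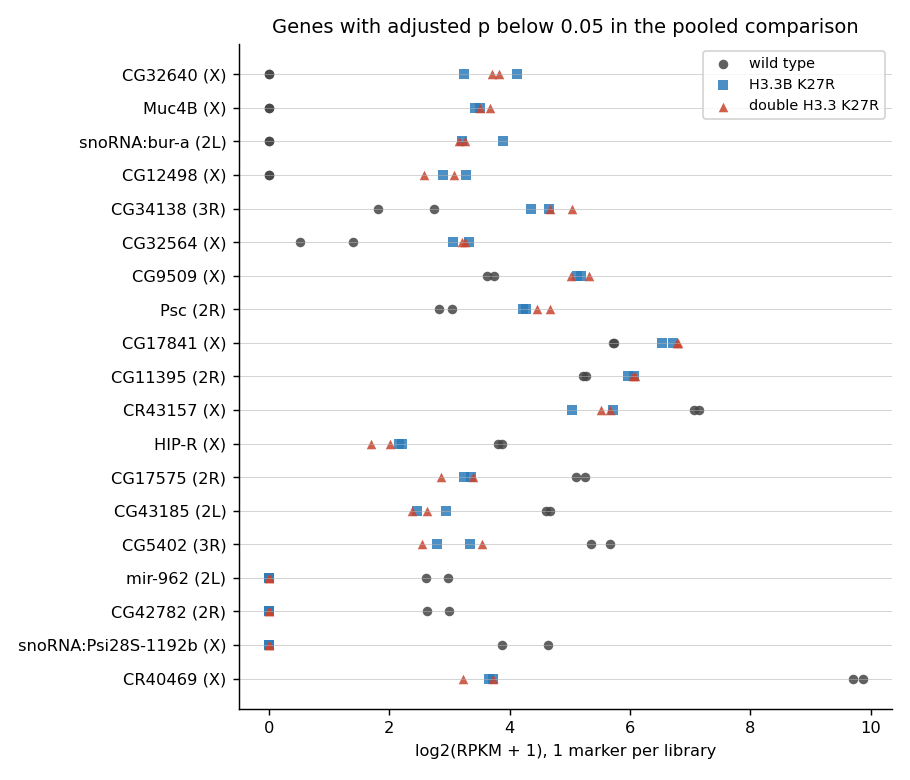
Levels of the 19 genes with an adjusted p below 0.05, on log2(RPKM + 1), with 1 marker per library and the chromosome arm in parentheses. In every row the 4 mutant markers lie on one side of both wild type markers. The wild type markers lie at 0 for CG32640, Muc4B, snoRNA:bur-a and CG12498, and the mutant markers lie at 0 for mir-962, CG42782 and snoRNA:Psi28S-1192b.

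Psc was the Polycomb gene among the 19. It encodes a core subunit of PRC1 that compacts chromatin, and had 6.07 and 7.23 RPKM in wild type, 17.7 and 18.4 in the single mutants and 24.4 and 20.9 in the double mutants. All 4 mutants were above 17 RPKM and both controls below 8, for a difference of 1.48 (SE 0.17, limma adjusted p = 0.0463). Its neighbour and paralogue Su(z)2 had 9.79 and 11.4 RPKM in wild type, 24.3 and 26.7 in the single mutants and 39.4 and 38.1 in the double mutants. Both are separated genes, so by definition their groups do not overlap. The Su(z)2 difference of 1.49 (SE 0.23) had a limma adjusted p of 0.117. In the 3-genotype fit the adjusted p was 0.0146 for Su(z)2 and 0.0219 for Psc. The double mutant libraries were above the single ones for both genes, and that difference did not pass the test (limma adjusted p = 0.526 for Psc and 0.179 for Su(z)2).

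Of the other genes that were higher at an adjusted p below 0.05, 4 were on X (CG12498, CG32564, CG9509 and CG17841) and CG34138 was on 3R. CG12498 was at 0 in wild type and 4.95 to 8.65 RPKM in mutants (adjusted p = 0.0171). The mutant mean was 4.02 times the level of 3 reads per wild type library. CG12498 lies inside kirre, a cell adhesion gene of myoblast fusion on the same strand. Levels of kirre went from 1.68 and 2.28 RPKM in wild type to 2.73 to 3.02 in mutants. CG32564 was at 0.434 and 1.63 RPKM in wild type and 7.33 to 9.02 in mutants. CG34138 was at 2.52 and 5.68 RPKM in wild type and 19.5 to 32.0 in mutants. CG9509, a GMC oxidoreductase whose current symbol is fiz, was at 11.3 and 12.3 RPKM in wild type and 31.5 to 38.7 in mutants. It rose by 1.48 (SE 0.13, limma adjusted p = 0.0153) while Flo-2, a flotillin gene that overlaps it on the other strand, was at 11.4 and 15.03 RPKM in wild type and 5.10 to 7.22 in mutants. CG17841 was the most highly expressed riser, at 51.7 and 52.5 RPKM in wild type and 91.5 to 110 in mutants (0.98, SE 0.11, adjusted p = 0.0455). Of the genes that overlap CG17841 on the other strand, CG32681 and Psf3, a subunit of the GINS replication complex, were separated in the same direction. Both had at most 5 reads in any wild type library. Values of CG32686, also on the other strand, and of CG2898, on the same strand, are not given here.

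CG11395, on 2R with the current symbol Gbp2, was at 36.1 and 37.7 RPKM in wild type and 61.4 to 66.7 in mutants. Gbp2 names a growth-blocking peptide, an insect cytokine. Its difference of 0.79 (SE 0.10) was the smallest among the 19 genes, and both groups were tight. The last riser, snoRNA:bur-a, had 0 reads in wild type and 2 to 4 reads in the mutants, and is within bur, a gene of purine synthesis.

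Of the 9 genes that were lower, 6 had 18 or more reads in each wild type library. CR43157, a non-coding locus on X, was at 141 and 133 RPKM in wild type and 31.9 to 51.9 in mutants (-1.62, SE 0.20, adjusted p = 0.0463). HIP-R, also on X and named for Hsc70-interacting protein, was at 12.9 and 13.7 RPKM in wild type and 2.24 to 3.66 in mutants (-1.81, SE 0.22, adjusted p = 0.0463). Its similar copy HIP, also on X, moved the other way, from 8.25 and 8.496 RPKM in wild type to 14.98 and 15.2 in the single mutants and 20.3 and 18.7 in the double mutants, and reads could be split between the 2 genes. On 2R, CG17575 was at 33.5 and 37.0 RPKM in wild type and 6.24 to 9.52 in mutants. On 2L, CG43185 was at 24.4 and 23.4 RPKM in wild type and 4.21 to 6.72 in mutants, and its neighbour CG9029, which had an adjusted p of 0.26 (0.021 in the 3-genotype fit), was at 449 and 421 RPKM in wild type and 37.3 to 149 in mutants. CG5402 on 3R was at 50.1 and 39.9 RPKM in wild type and 4.86 to 10.6 in mutants. The remaining ones were mir-962, with 1 read in each wild type library, CG42782, with 2 in each, and snoRNA:Psi28S-1192b, and all 3 were at 0 in the mutants.

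Of these results, 4 of the 19 genes had under 10 reads in every library. Leaving out any 1 of the 4 mutant libraries left CR40469 as the only gene called. The limma adjusted p was then 0.0183 to 0.0349 for Muc4B, 0.0183 to 0.0649 for CG32640 and 0.0259 to 0.0468 for snoRNA:Psi28S-1192b. Without a wild type library a single control remains, so only differences are given. Without wild type replicates 1 and 2 in turn, snoRNA:Psi28S-1192b was at -4.64 and -3.87. Muc4B stayed at 3.53 and CG32640 at 3.73.

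The H3 genes did not pass the test. His3.3B, the mutated gene in all 4 mutant libraries, had 101 and 111 RPKM in wild type, 121 and 126 in the single mutants and 121 and 114 in the double mutants, and was separated by a small margin (0.18, SE 0.10, adjusted p = 0.536). RNA level does not check a point mutation. His3.3A was at 40.8 and 60.8 RPKM in wild type and 43.6 to 63.6 in mutants, and His3, the single annotated copy that stands for the replication-dependent H3 genes, at 25.5 and 35.3 RPKM in wild type and 16.7 to 51.5 in mutants. Both overlapped between groups. His4r, the replication-independent H4 gene, was at 170 and 167 RPKM in wild type and 202 to 232 in mutants, and His4 went the other way, from 57.1 and 46.5 to between 37.8 and 41.9 RPKM.

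The Polycomb genes were described from lists of known members. The 15 listed core subunits and partners of PRC1 and PRC2 had a median difference of 0.21. Of these, 6 were separated and higher and none was separated and lower (over all genes tested, 9.59% were higher and 12.1% lower). Besides Psc and Su(z)2 these were Caf1, a histone chaperone subunit of PRC2, the PRC2 partners Pcl and Jarid2, and the PRC1 gene ph-d. Caf1 was at 3.09 and 4.91 RPKM in wild type and 5.43 to 7.17 in mutants, and Pcl at 9.15 and 10.6 RPKM in wild type and 10.7 to 14.4 in mutants. The H3K27 methyltransferase E(z) was not separated, at 2.36 and 2.83 RPKM in wild type and 2.35 to 5.86 in mutants. Neither were Pc, the chromodomain subunit that binds methylated lysine 27 (-0.03, SE 0.19), and Sce, the H2A ubiquitin ligase (-0.02, SE 0.34).

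Of 13 other Polycomb group genes, 4 were separated and higher (30.8%, against 9.59% over all genes tested) and none lower. They were calypso, a subunit of the H2A deubiquitinase, Sfmbt, corto and crol, and calypso had the largest difference, from 2.37 and 3.34 RPKM in wild type to between 3.38 and 6.45 in mutants. Of 21 Trithorax group genes, which keep Polycomb targets active, 3 were separated and higher (14.3%) and none lower: the chromatin remodelling subunits mor, polybromo and e(y)3. Without wild type replicate 1, the median of the Trithorax list was -0.01 and that of the other Polycomb group genes -0.03. Of these 49 genes, Psc had an adjusted p below 0.05 in the pooled fit, and Psc and Su(z)2 in the 3-genotype fit.

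Among 61 tested patterning genes known as Polycomb targets, 13 were separated and higher (21.3%) and 3 lower (4.92%), and no adjusted p was below 0.05. The shares over all genes tested were 9.59% higher and 12.1% lower. The gap gene gt had the largest increase, from 1.41 and 1.85 RPKM in wild type to between 3.81 and 4.75 in mutants (1.00, SE 0.22, limma adjusted p = 0.26). The head and segmentation genes slp2 and ems followed, slp2 at 1.07 and 0.805 RPKM in wild type and 1.86 to 4.08 in mutants, and ems at 2.54 and 1.72 RPKM in wild type and 3.80 to 5.55 in mutants. All 3 rest on 4 to 22 reads per library. The paired-type gene gsb-n was separated and lower, from 4.50 and 2.11 RPKM to between 0.535 and 2.04. Of the 7 Hox genes tested, Scr was separated and higher (1.65 and 2.58 RPKM in wild type, 3.42 to 4.31 in mutants), Dfd and lab were separated and lower, and Ubx, abd-A and Abd-B were not separated. Under quantile normalization, 18 patterning genes were separated and higher and none was lower, and without wild type replicate 1 there were 20 higher and 14 lower.

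**Figure D3:**
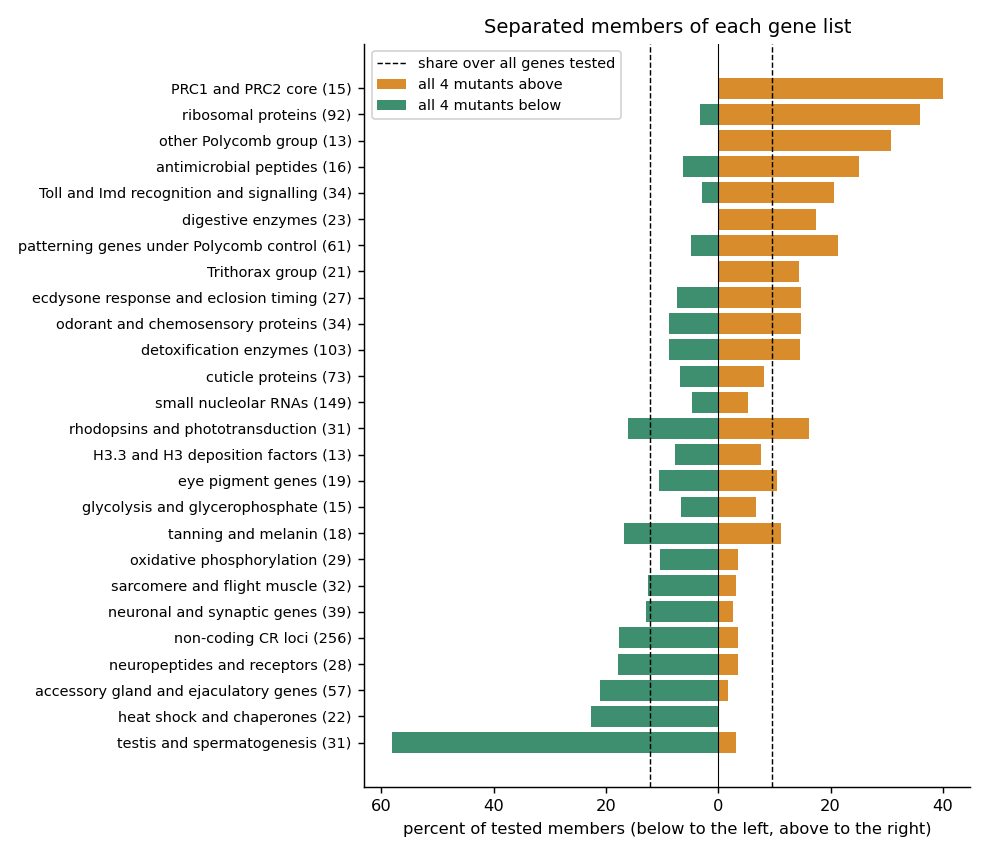
Share of the tested members of each gene list (number in parentheses) for which all 4 mutant libraries lay above both wild type libraries (orange, to the right) or below both (green, to the left). Dashed lines are the shares over all genes tested, 9.59% above and 12.1% below. Testis genes reach 58.1% below, and ribosomal proteins 35.9% above.

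Genes of the testis and late spermatogenesis lay mostly below wild type in the mutants, by small amounts. Of 31 testis genes tested, 18 were separated and lower (58.1%) and 1 was higher (3.23%), with a median difference of -0.35. The Mst genes encode small proteins of the sperm tail and sperm chromatin. Mst87F was at 274 and 266 RPKM in wild type, 136 and 171 in the single mutants and 169 and 150 in the double mutants, a difference of -0.79 (SE 0.12). Mst84Dc was at 338 and 274 RPKM in wild type and 165 to 194 in mutants, and Mst84Db at 182 and 216 RPKM in wild type and 113 to 143 in mutants. As separated genes, these 3 do not overlap between groups by definition, and each rested on 72 to 265 reads. The tail gene dj was at 126 and 151 RPKM in wild type and 83.0 to 103 in mutants. The testis tubulin betaTub85D was at 137 and 141 RPKM in wild type and 102 to 120 in mutants. Mst77F, a protein of condensed sperm chromatin, was at 210 and 212 RPKM in wild type and 136 to 172 in mutants. The exception was Mst85C, which was higher, from 4.30 and 6.13 RPKM to between 6.42 and 10.7.

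No testis gene had an adjusted p below 0.05, and the lowest, for Mst87F, was 0.118 in limma. The 4 Mst84D genes are similar copies in a row, as are the protamine-like genes Mst35Ba and Mst35Bb, so these members may share reads. By library, the list median was -0.06 and 0.06 in the controls, -0.35 and -0.34 in the single mutants and -0.27 and -0.38 in the double mutants. Over the alternatives that were run, 16 to 24 members were separated and lower. The 4 testis markers, dj, betaTub85D, Mst87F and aly, summed to 538 and 559 RPKM in wild type and 340 to 381 in mutants. Of these, dj, betaTub85D and Mst87F are among the genes described above, so the sum is not separate evidence.

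Members of other lists that were lower included genes known for the testis. Of 22 heat shock and chaperone genes tested, 5 were separated and lower (22.7%, against 12.1% over all genes tested) and none was higher. The 5 were Hsp60B, Hsp60C, Hsp60D, Hsc70-1 and Hsc70-2. Hsp60B is a mitochondrial-type chaperonin required for sperm individualization, and was at 71.8 and 70.8 RPKM in wild type and 51.6 to 54.1 in mutants. Hsp60C was at 73.2 and 69.0 RPKM in wild type and 43.7 to 48.8 in mutants (-0.62, SE 0.10, adjusted p = 0.129). RpL22-like, a germline paralogue of a ribosomal protein, was at 18.5 and 13.5 RPKM in wild type and 8.77 to 13.2 in mutants.

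Genes of the male accessory gland and ejaculatory tract, whose products form the seminal fluid, were also mostly below wild type, but the wild type libraries themselves differed. Of 57 tested, 12 were separated and lower (21.1%, against 12.1% over all genes tested) and 1 higher (1.75%, against 9.59%). A difference below 0 was found for 52. Acp32CD was at 52.4 and 36.6 RPKM in wild type, 9.67 and 11.6 in the single mutants and 4.84 and 5.28 in the double mutants (-2.42, SE 0.35, adjusted p = 0.105). The seminal lectin gene lectin-46Ca was at 15.9 and 17.5 RPKM in wild type and 0.541 to 3.54 in mutants, and its neighbour lectin-46Cb at 9.81 and 16.7 RPKM in wild type and 0.811 to 3.19 in mutants. All 3 are separated genes, so by definition their groups do not overlap. In the 3-genotype fit Acp32CD and lectin-46Cb passed an adjusted p of 0.05 (0.01 and 0.0399). Sfp24Bb and Acp24A4 had larger or similar differences, but Sfp24Bb was at 127 and 31.1 RPKM in wild type, 0 and 0 in the single mutants and 6.55 and 25.7 in the double mutants. The esterase gene Est-6 was the member that was higher, from 13.7 and 8.74 RPKM to between 19.3 and 24.5.

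The summed level of the whole list was 11750 and 6093 RPKM in wild type and 5216 to 7980 in mutants, so wild type replicate 2 lay within the mutant range. Its median difference of -0.42 became -0.20 without wild type replicate 1, with 13 members lower and 7 higher, and -0.95 without wild type replicate 2, with 40 lower. Genes of cuticle tanning and melanin were summed at 2700 RPKM in wild type replicate 1 and 2410 in double H3.3 K27R replicate 2, against 1586 to 1793 in the other 4 libraries. The part of this split in the accessory gland values was not tested.

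**Figure D4:**
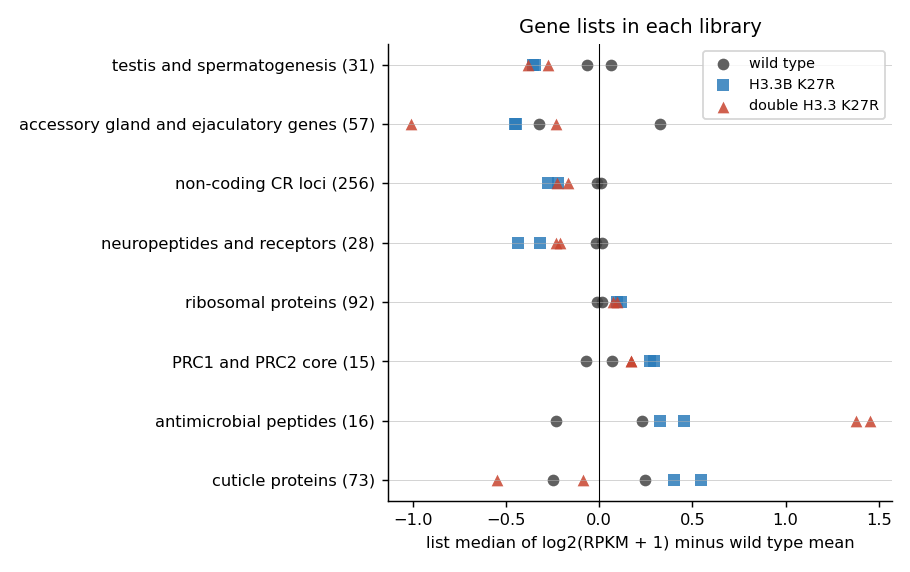
Median over the tested members of 8 gene lists of log2(RPKM + 1) minus the wild type mean, with 1 marker per library and the number of members in parentheses. For testis genes the 4 mutant markers lie between -0.38 and -0.27 and the wild type markers at -0.06 and 0.06. For accessory gland genes one wild type marker, at -0.33, lies within the mutant range, and for cuticle proteins the groups overlap.

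Ribosomal protein genes were separated mostly in the higher direction, with small differences. Of 92 tested, 33 were separated and higher (35.9%) and 3 lower (3.26%), with a median of 0.10. The shares over all genes tested were 9.59% higher and 12.1% lower. RpL31 had the largest difference among the higher ones, at 802 and 730 RPKM in wild type, 889 and 829 in the single mutants and 1132 and 1130 in the double mutants. RpL9 was at 935 and 915 RPKM in wild type and 1057 to 1141 in mutants, and RpL35 at 350 and 336 RPKM in wild type and 367 to 440 in mutants. The genes are highly expressed, and none of the 33 had an adjusted p below 0.05. The list sum was 40080 and 39010 RPKM in wild type and 41740 to 42920 in mutants, and quantile normalization left 26 members higher.

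Loci with CR symbols, which are non-coding genes and pseudogenes, were mostly lower when separated. Of 256 tested, 45 were lower (17.6%, against 12.1% over all genes tested) and 9 higher (3.52%, against 9.59%). The list median was -0.24. Besides CR40469 and CR43157, CR43414 had 2 and 7 reads in wild type and none in the mutants. Its lower wild type value was thus below the 3 reads allowed for in each library of a group at 0. CR43634 had 4 and 2 reads in wild type and 1 read in the 4 mutants together. CR43855 went the other way, with 0 reads in wild type and 2 to 8 in the mutants, at its lowest also below that allowance. Many of these loci were near the detection limit, and with a mean of at least 10 reads 61 were tested, of which 16 were lower and 4 higher.

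Of 149 small nucleolar RNAs tested, 8 were separated and higher (5.37%, against 9.59% over all genes tested) and 7 lower (4.70%, against 12.1%). They guide the modification of ribosomal RNA, and their short length means that 1 read is worth several RPKM. snoRNA:291 was at 0 and 6.38 RPKM in wild type and 16.2 to 70.4 in mutants, from 0 to 8 reads, and snoRNA:abba-a had 1 and 3 reads in wild type and none in mutants. The mir-990 locus had 2 reads in each wild type library and 1 read in the 4 mutants together.

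Of 28 neuropeptide and receptor genes tested, 5 were separated and lower (17.9%, against 12.1% over all genes tested) and 1 higher (3.57%, against 9.59%). They were Lk (leucokinin, a diuretic hormone), burs (a subunit of bursicon, the hormone of cuticle tanning and wing expansion), sNPF (a feeding peptide), Mip and Dms. The gene sNPF was the best covered, at 10.3 and 8.68 RPKM in wild type and 3.41 to 6.63 in mutants (-0.93, SE 0.26, adjusted p = 0.309). Lk was at 4.02 and 5.28 RPKM in wild type, 0.834 and 1.99 in the single mutants and 0 in both double mutant libraries, from at most 7 reads. With a mean of at least 10 reads, 12 of the list were tested and 1 was lower.

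Antimicrobial peptide genes had a median difference of 1.07, with 4 of 16 separated and higher and 1, CecA1, lower. Mtk (metchnikowin) was at 7.03 and 8.81 RPKM in wild type, 17.5 and 16.3 in the single mutants and 82.5 and 53.5 in the double mutants. Here the mutants differed from each other, by 1.91 on the log2 scale (SE 0.23, limma adjusted p = 0.043 for double against single). The difference of their mean from wild type had an adjusted p of 0.365 in the pooled fit and 0.0232 in the 3-genotype fit. AttB, AttD and CecB, encoding attacins and a cecropin, were the other higher members, with at most 13 reads in any library.

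Digestive enzymes had 4 of 23 separated and higher (17.4%) and none lower, where all genes tested had 9.59% higher and 12.1% lower. The 4 were the proteases betaTry and Ser6, the maltase Mal-A6 and the lysozyme LysE. LysE was at 16.3 and 22.0 RPKM in wild type and 23.7 to 59.8 in mutants, while betaTry and Ser6 had at most 1 read in a wild type library. Detoxification genes went both ways, with 15 higher (14.6%) and 9 lower (8.74%) of 103. The cytochromes P450 led the lower ones, with Cyp4p2 at 10.6 and 10.1 RPKM in wild type and 0 to 3.36 in mutants, Cyp6a9 at 3.52 and 1.92 RPKM in wild type and 0 to 0.532 in mutants, and Cyp6a2 at 18.8 and 10.4 RPKM in wild type and 0.357 to 9.04 in mutants. The glutathione transferase GstE4 was at 13.01 and 6.33 RPKM in wild type and 0 to 3.82 in mutants.

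Chemosensory genes had 5 higher (14.7%) and 3 lower (8.82%) of 34 tested. The shares over all genes tested were 9.59% higher and 12.1% lower. Obp83ef, an odorant-binding protein, was at 11.1 and 12.3 RPKM in wild type and 15.5 to 20.01 in mutants, and Obp22a at 18.8 and 16.4 RPKM in wild type and 7.56 to 12.4 in mutants. Phototransduction genes were balanced at 5 in each direction of 31 (16.1%). The rhodopsin chaperone ninaA was at 2.89 and 8.13 RPKM in wild type and 8.60 to 11.2 in mutants, and the carotenoid uptake genes ninaD and santa-maria were higher as well. Cuticle proteins had 6 higher (8.22%) and 5 lower (6.85%) of 73 tested, with a median difference of 0.43 in single and -0.29 in double mutants. By library, the list median was -0.25 and 0.25 in wild type, 0.54 and 0.40 in single and -0.09 and -0.55 in double mutants. The first double mutant library thus lay between the controls. Within the GMC oxidoreductases around CG9509, CG12539 was also separated and higher, and CG9512 and CG9519 were separated and lower, CG9512 from 7.46 and 6.50 RPKM to between 2.84 and 4.33.

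Other large differences fell outside these lists. CG11370 on 3L had the largest separated increase of all, from 3.33 and 1.07 RPKM in wild type to 25.7 and 25.9 in the single mutants and 101 and 74.3 in the double mutants (4.02, SE 0.63, adjusted p = 0.119 in the pooled fit and 0.01 in the 3-genotype fit). CG16762 was at 10.7 and 8.54 RPKM in wild type, 14.8 and 28.2 in the single mutants and 136 and 152 in the double mutants. CG34296 had 1 and 0 reads in wild type and 3 to 6 in mutants. Among the decreases, CG13965 was at 22.3 and 15.9 RPKM in wild type and 0 to 4.67 in mutants. CG2650, whose current symbol is dyw and which overlaps the clock gene per on the other strand, was at 43.4 and 8.39 RPKM in wild type and 0.616 to 5.14 in mutants.

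Separated genes were distributed unevenly over the chromosomes. On X, 14.6% of 1770 tested genes were separated and higher and 9.15% lower, whereas on the 4 large autosomal arms together 8.64% of 9290 were higher and 12.8% lower. The 4 large autosomal arms that make up this total had between 8.43% and 9.21% higher and between 11.6% and 14.5% lower. On the small chromosome 4, not included in it, 9.41% of 85 were higher and 5.88% lower. Of the 19 genes with an adjusted p below 0.05, 10 were on X (0.565% of its tested genes, against 0.0969% on the autosomal arms), 6 of them higher and 4 lower. In contrast, separated genes that differed by more than 1 made up 2.09% of the genes tested on X and 2.17% on the autosomal arms.

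The higher share on X came with a small shift of the whole chromosome. For each library the median log2 deviation from the control mean was taken over X-linked genes and over autosomal genes. The first exceeded the second by 0.0017 and -0.0017 in wild type, 0.0662 and 0.0598 in the single mutants and 0.0738 and 0.0508 in the double mutants. The 4 mutants lay above both controls, by 0.0626 on average (SD 0.0097 over 4 mutant libraries and 0.0023 over 2 wild type libraries), or 1.04-fold. In an exact permutation test (two-sided) p was 0.0667, the smallest that 4 against 2 libraries allow. Deviations were taken from the control mean, so the 2 control values mirror each other by construction. Their SD therefore does not measure the spread between controls, and the test does not treat the groups alike. The same 6 libraries chose the separated genes, so the p is not separate evidence for the share on X. With no filter on low values the shift was 0.0441. No gene of the dosage compensation list, which holds the roX RNAs and the subunits that raise transcription of the male X, was separated (7 tested).

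Within 2 Mb of His3.3B, 14.3% of 329 genes were higher and 10.3% lower, and from 6 to 8 Mb away 15.2% of 415 were higher and 7.95% lower. Separated genes that differed by more than 1 numbered 8 of 329 within 2 Mb, 3 of 344 from 2 to 4 Mb and 10 of 242 from 4 to 6 Mb. Farther away they numbered 10 of 415 from 6 to 8 Mb, 3 of 228 from 8 to 10 Mb and 3 of 211 from 10 to 15 Mb. Their share over all of X was 2.09%. Some lay near each other. CG3526 and CG3588 on X, 29.6 kb apart, were at 0 in the controls and had 5 to 22 reads per mutant library. Of the 37 such genes on X, 10 were within 50 kb of another (27.0%), and of the 202 on the autosomal arms 57 were (28.2%). Counted over all arms there were 35 pairs in which the next such gene lay within 50 kb, with any other genes between them passed over. Of these pairs, 26 changed in the same direction. They included Psc and Su(z)2, CG43185 and CG9029, lectin-46Ca and lectin-46Cb, and the proteases Ser6 and CG1304. With 155 of all 242 such genes lower, pairs drawn at random would often match too, and their share was not computed.

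**Figure D5:**
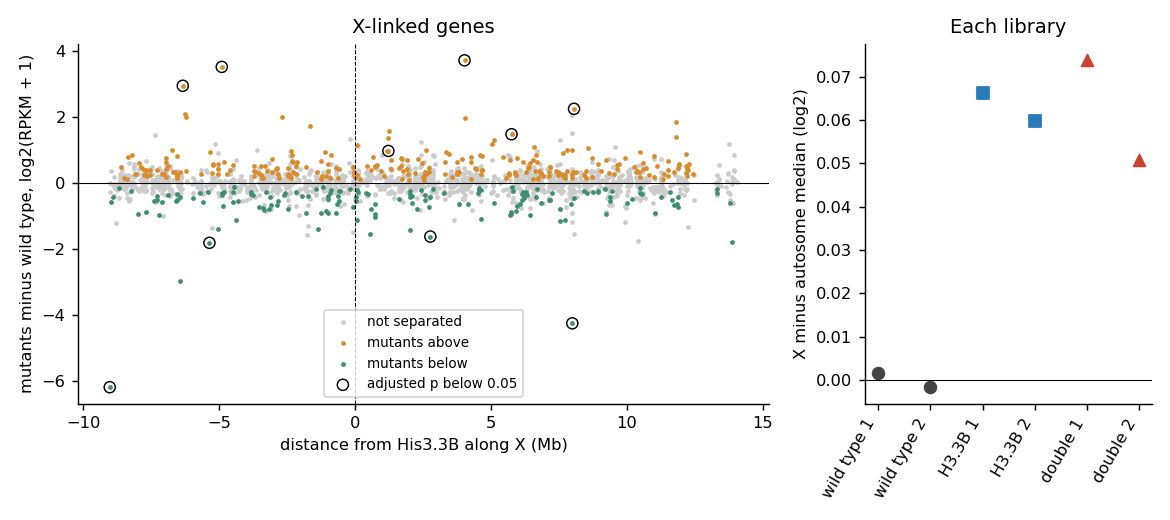
Left, difference between mutant and wild type libraries on log2(RPKM + 1) for X-linked genes against distance from His3.3B in Mb, with separated genes in color and circles at an adjusted p below 0.05. Right, median of X-linked genes minus median of autosomal genes in each library, relative to the wild type mean. The circled genes lie on both sides of His3.3B, and the 4 mutant libraries lie between 0.0508 and 0.0738.

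The double and single mutants were also compared with each other, a contrast whose difference is taken between mutant libraries only, while its error comes from the fit of all 6 libraries. With any 1 of the 6 libraries left out, wild type included, 2 genes were called in place of 7. Across all genes, 35 had an adjusted p below 0.05 (0.31%) and 7 were called (0.0619%). Of the 2452 separated genes, 6 had an adjusted p below 0.05 (0.245%): Arc1, CG16762, CG32368, Mtk, CG34211 and snoRNA:Tudor-SN-a. Arc1, a Gag-like protein that carries RNA between cells, was at 122 and 119 RPKM in wild type, 204 and 159 in the single mutants and 594 and 485 in the double mutants (double minus single 1.57, limma adjusted p = 0.0278). CG34211 was lowest in the double mutants, going from 378 and 360 RPKM in wild type to 332 and 240 in the single mutants and 106 and 112 in the double mutants. An unadjusted p below 0.05 was found for 7.75% of separated genes and 12.5% of all genes, and separation itself selects genes with a small spread among the mutants. The double mutants were further from wild type than the single mutants for 1345 of the 2452 separated genes (54.9%), against 5901 of all 11304 genes tested (52.2%). Among separated genes the count was 652 of the 1084 that were higher and 693 of the 1368 that were lower (50.7%).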

How the data were processed

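RNA was taken from pooled whole males, and libraries were made with the Nugen Ovation kit for model organisms. The authors aligned reads with STAR 2.5.2b to a modified dm3 genome, with 1 annotated copy of each replication-dependent histone gene, counted them on genes with Subread 1.28.1, and deposited RPKM values. The authors merged the technical runs of the first single mutant library. The use of strand in counting is not given in the sources used here, so overlapping genes, as for 9 of the 19 genes with an adjusted p below 0.05, can share reads. The authors also deposited DESeq2 1.18.1 results (fold changes, p values) for pairs of genotypes, which were not used. From that table only the deposited signal column, mean counts over size factors, served to fix the scale of recovered reads.

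All 73342 RPKM values above 0 were whole numbers of reads to within 0.005. Of the 15115 genes, 14867 matched the BDGP6 annotation by current or older symbol. The fit took genes averaging an RPKM of 1 or more over the 6 libraries and was made in limma 3.58.1 (R 4.3.3) on log2(RPKM + 1), using lmFit and eBayes with a trend, a factor of pooled mutants against wild type, and Benjamini-Hochberg adjustment (4 residual and 3.02 prior degrees of freedom). Double against single mutants came from a fit with the 3 genotypes. A call required an adjusted p under 0.01 with a log2 difference larger than 1 in either direction. For a group at 0, 3 reads per library were allowed for, and the observed mean of the other group was set against that level. The counting error of the other group was not covered. Labels do not say whether libraries of a genotype came from separate cultures, so p values measure the spread between libraries.

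Named genes are those called, the 12 separated genes with the largest increase and the 12 with the largest decrease, the H3 genes, Psc and Su(z)2, up to 4 separated members per list, genes at the edge of separation, and neighbours of called genes, of which 1 is not reported here. Others were chosen after their values were seen. The members and gene lists were chosen with earlier results of these data known, and names assigned to the wrong list were removed after the data were seen. Alternatives are given in the closing section. The procedure was run on simulated data in which only well-covered genes were changed, by the same fold in both mutant genotypes. That run does not cover genes with few reads.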

Additional observations from a re-analysis of the deposited data

Results flagged for a closer look

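Among the 4 mutant libraries of the 108 named genes, 10 genes had 1 library farther from the rest than Dixon's 95% critical value for 4 libraries allows, and chance alone marks about 1 group in 20. The gap to the nearest library as a share of the whole range was 1.0 for CR43634, mir-990, snoRNA:Psi28S-1180 and snoRNA:Psi28S-1192c, where a single read in 1 library stood against 0 in the other 3. It was 0.95 for CG12539, 0.853 for Hsp60D and 0.849 for snoRNA:bur-a, each with 1 high library. For CR40469 the share was 0.879, set by double H3.3 K27R replicate 1, which had 3 reads. It was 0.835 for e(y)3 and 0.849 for mor, each with 1 low library.

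For 2 of the 108 named genes the double and single mutants differed. Arc1 and CG34211, described above for the same contrast, are not in that set. The double minus single difference on the log2 scale was 2.76 for CG16762 (limma adjusted p = 0.0297) and 1.91 for Mtk (limma adjusted p = 0.043), and both double libraries were above both single libraries.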

How the results depend on the processing

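The pooled comparison called 2 genes higher and 2 lower. The counts were 4 higher and 1 lower with a pseudocount of 0.1, 1 and 1 with a mean RPKM of at least 5, 1 and 2 with no filter, 1 and 3 for the mean of both mutants in a 3-genotype fit, 0 and 1 with voom weights on recovered reads, 4 and 5 without a trend, and 10 and 9 at an adjusted p below 0.05 with no fold threshold. With a mean of at least 10 reads, an alternative added after the data were seen, they were 1 and 1. Without any 1 library, 0 genes were higher and 1 lower. CR40469 kept its call in all of these. At an adjusted p below 0.05 the 3-genotype fit had 36 genes against 19. Between double and single mutants 7 genes were called, but 4 with no filter, 47 with voom weights, 2 without a trend, 35 at an adjusted p below 0.05 and 2 without any 1 library. Separated genes numbered 1272 to 2690 higher and 1686 to 2759 lower without 1 library, by construction, since fewer libraries have to be separated. The X shift of 0.0626 was 0.0441 with no filter.

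Same-numbered libraries did not deviate together: the correlation of replicate differences was 0.016 for wild type and single, -0.21 for wild type and double, and 0.0093 for single and double mutants. With a replicate block, 0 genes were higher and 1 lower, and 2 were called between double and single mutants. With the numbers of the double mutants swapped, an alternative added after the data were seen, 0 were higher and 1 lower.

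Over 1859 values of 108 named genes, 10 changed sign, in genes that were not called, and the cause was not tested. CG43288 was at 0.000827 with quantile normalization, and ranged from -0.169 to 0.0925 without 1 library. His3 was at -0.0257 with voom, and ranged from -0.198 to 0.323 without 1 library. The ranges without 1 library were -0.167 to 0.397 for His3.3A and -1.57 to 0.612 for snoRNA:Psi28S-1192c. With 1535941 to 2118264 reads per library, genes near RPKM 1 rest on a few reads, which limits what could be detected among them.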
